A study of Patiria miniata with 18 samples.

Results

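Frizzled receptors are the membrane proteins to which secreted Wnt ligands bind. Every locus that the deposited name table calls Frizz was taken, which gave 4 loci under 3 names, of the 31798 loci of that table and 80165 loci counted. They are Frizz5/8, Frizz1/2/7 and a pair of loci that share the name Frizz9/10. The larvae were bat star (Patiria miniata) bipinnariae, the swimming and feeding larval stage of this sea star, cut across the middle of the anterior-posterior axis through the foregut at 7 days post-fertilization. Anterior fragments, posterior fragments and uncut sibling larvae of the same age were each collected at about 3 hours post-bisection (0 dpb in the labels, days post-bisection), at 3 dpb and at 6 dpb, with 2 replicate pools of approximately 300 siblings for each of the 9 groups, or 18 polyA RNA libraries. All groups were kept in artificial seawater and came from cultures fed an alga, and neither a genetic change nor a drug was used. The methods do not describe feeding of the fragments apart from that of the cultures. Fragments and uncut larvae were kept in separate dishes, and each fragment lacked the other part of the larva. The parts of the wound, the lost tissue, feeding and the dish in a difference from uncut larvae were not tested.

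In the canonical Wnt pathway, a Wnt ligand holds a frizzled receptor together with a co-receptor of the LRP family, Dishevelled is drawn to the receptor, and beta-catenin escapes destruction and enters the nucleus. In echinoderm embryos, as in many animals, Wnt activity is high at the posterior end and low at the anterior end, and frizzled genes are used in different places along that axis. Frizz5/8 is known from sea urchin embryos as a gene of the anterior neuroectoderm, the tissue that gives rise to the apical nervous system, whereas Frizz1/2/7 is known there as a broadly expressed receptor.

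The 4 loci lie on 4 scaffolds of the P. miniata v1.0 assembly. Frizz5/8 (Pm-Frizz5/8 in the name table, XLOC_051341, gene model PMI_025191) spans bases 35051 to 40020 of the minus strand of scaffold 4579 in an exonic length of 4970 bases, and Frizz1/2/7 (Pm-Frizz1/2/7, XLOC_060098, PMI_029498) spans bases 24146 to 35582 of the plus strand of scaffold 5888 in 11437 bases. The Frizz9/10 locus XLOC_064336 (Pm-Frizz9/10, PMI_029469) spans bases 15898 to 23305 of the plus strand of scaffold 6583 in 7408 bases, inside an intron of a locus that has no exon in common with it and at most 16 counts in any library. The second Frizz9/10 locus, XLOC_075788 (PMI_029600), spans bases 18797 to 24908 of the minus strand of scaffold 891 in 6112 bases. Below, Frizz9/10 stands for XLOC_064336, and XLOC_075788 is called the second Frizz9/10 locus. Since the strand setting of the counting was not given in the sources used here, reads of an antisense transcript could not be told from those of a member.

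The study designed a probe of 100 bases for Frizz5/8 and one for Frizz9/10, and both are shown because they are the stretches by which the anterior and the posterior receptor can be told apart. The capitals mark the longest run of bases that both have in common, 7 bases, and GC content was 51% for the Frizz5/8 probe and 54% for the Frizz9/10 probe.
Frizz5/8: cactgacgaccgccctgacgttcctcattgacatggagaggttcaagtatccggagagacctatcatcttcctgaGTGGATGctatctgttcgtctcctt
Frizz9/10: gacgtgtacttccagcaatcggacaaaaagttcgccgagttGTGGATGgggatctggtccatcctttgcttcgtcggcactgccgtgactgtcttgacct
No probe of the second Frizz9/10 locus was found among the study's probes.

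Libraries held 15868104 to 36152675 counts on loci, with a median of 20631998, and all 4 loci passed the filter on low counts. Levels below are in CPM, counts scaled to a common library size with the trimmed mean of M values (TMM). A fold change is called at an adjusted p under 0.05 in edgeR's quasi-likelihood test over all 31798 loci. That fit has a single replicate term for all times, which leaves replicate differences specific to a time in its error. The labelled fragments were checked against axis markers. In anterior against posterior fragments at 0 dpb, 6 of 8 loci of the anterior marker list were called higher and 0 lower. Of the posterior marker list, 10 of 21 loci were called lower and 0 higher. The 8 anterior loci carry 7 names and the 21 posterior loci 14 names, and loci of a shared name were counted separately. Of all tested loci 0.884% were called higher and 4.41% lower. In anterior fragments against uncut larvae at 0 dpb, 1 of the 8 anterior marker loci was called higher and 0 lower. Of the 21 posterior marker loci 10 were called lower there, but 3 were called higher. Of all tested loci 4.76% were called lower there and 2.31% higher. Summed over the list, the anterior markers stood at 511 to 758 CPM in the anterior libraries against 238 to 488 CPM in the posterior libraries, and the posterior markers at 258 to 407 CPM in the anterior libraries against 651 to 856 CPM in the posterior libraries. Among markers of cells that the cut could divide unequally, the 2 gut loci, Hnf4 and Hnf1aL, summed to 0.453 to 1.23 CPM in anterior fragments against 5.78 to 18.6 CPM in posterior fragments, and the 4 ciliary band loci to 245 to 364 CPM against 113 to 226 CPM. The 6 neuron loci (2 names) summed to 313 to 443 CPM in anterior fragments and 224 to 379 CPM in posterior fragments, and the 9 mesenchyme loci (4 names) to 376 to 491 CPM and 440 to 529 CPM. At 0 dpb edgeR called both gut loci and 1 mesenchyme locus lower in anterior than posterior fragments, and 0 ciliary band and 0 neuron loci. That mesenchyme locus, GataC (XLOC_034419), had 14.4 and 14.2 CPM in anterior against 106 and 100 CPM in posterior fragments. Its log2 fold change was -2.85 (adjusted p = 0.000399), a difference that the list sum hides. The part of these cells in the frizzled levels was not tested, and in RNA from whole fragments fewer cells of a type and less RNA per cell cannot be told apart.

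**Figure D1:**
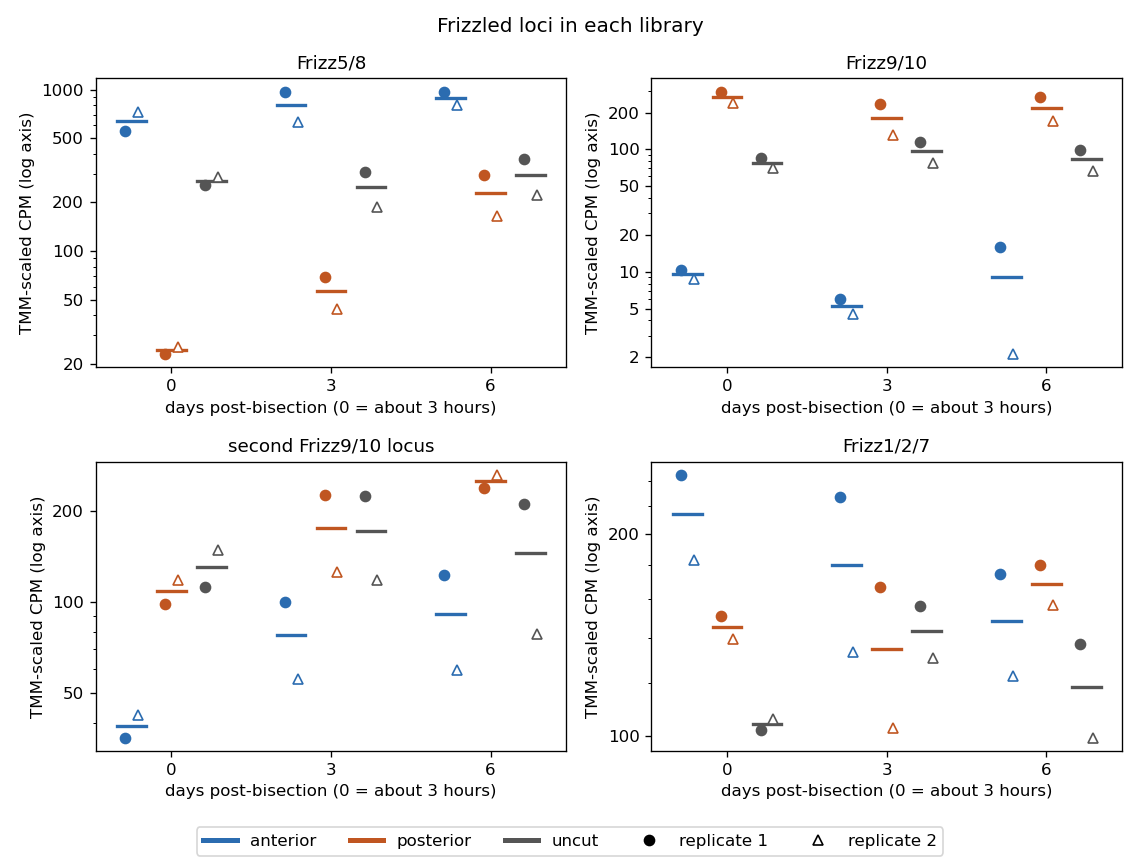
TMM-scaled CPM on a log axis of the 4 frizzled loci in each library at 0, 3 and 6 days post-bisection, with a filled circle for replicate 1, an open triangle for replicate 2 and a bar for their mean, in anterior fragments, posterior fragments and uncut larvae. Frizz5/8 is highest in the anterior libraries at every time and its posterior level climbs to 294 and 166 CPM at 6 dpb, whereas Frizz9/10 stays at 15.9 CPM or less in the anterior libraries.

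Frizz5/8 was highest in anterior fragments. At 0 dpb it stood at 556 and 725 CPM in the 2 anterior pools, at 22.9 and 25.5 CPM in the 2 posterior pools and at 255 and 286 CPM in the 2 uncut pools, replicate 1 first. All 3 kinds of sample were separate, with uncut larvae between the fragments. The anterior fragments exceeded the posterior fragments by 4.74 ± 0.39 on the log2 scale (fold change ± SE, adjusted p = 4.04e-05), which is 24.3-fold in replicate 1 and 28.4-fold in replicate 2. In that comparison 5.29% of all tested loci were called, and of the 4 frizzled loci Frizz5/8 and Frizz9/10 were called.

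At 3 dpb Frizz5/8 had 972 and 634 CPM in anterior fragments, 68.9 and 43.4 CPM in posterior fragments, and 308 and 187 CPM in uncut larvae. The 3 kinds of sample again did not overlap, and the anterior level exceeded the posterior level by 3.84 ± 0.37 (log2, adjusted p = 9.68e-05), where 3.59% of loci were called. At 6 dpb the gene had 965 and 807 CPM in anterior fragments, 294 and 166 CPM in posterior fragments, and 369 and 222 CPM in uncut larvae. The posterior and uncut pools now overlapped across replicates. Within each replicate the posterior level was still lower, at 0.797 and 0.748 of the uncut level. The anterior fragments exceeded the posterior fragments by 1.98 ± 0.34 (adjusted p = 0.00532), against 4.33% of loci called. That last call was lost without replicate 2 of the posterior fragments at 6 dpb (1.73, adjusted p = 0.0978).

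Set against uncut larvae, Frizz5/8 was higher in anterior fragments at each time. The log2 fold change was 1.26 ± 0.33 at 0 dpb (adjusted p = 0.0444), 1.70 ± 0.34 at 3 dpb (0.0178) and 1.61 ± 0.34 at 6 dpb (0.0257), with 7.07%, 2.26% and 2.19% of all loci called at the 3 times. Both replicates showed the direction, from 2.18-fold and 2.54-fold at 0 dpb to 2.62-fold and 3.64-fold at 6 dpb. At 0 dpb the call depended on the scaling: with library size alone, under which the median over all loci moved to -0.44 from -0.01, the value was 0.79 (adjusted p = 0.149). The call at 0 dpb was also lost without replicate 1 of uncut larvae (adjusted p = 0.184), replicate 2 of uncut larvae (0.0985) or replicate 2 of anterior fragments (0.283). The calls at 3 and 6 dpb were lost without any 1 of the 4 libraries compared, with log2 values of 1.50 to 1.93 at 3 dpb and 1.41 to 1.85 at 6 dpb.

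In posterior fragments Frizz5/8 started far below uncut larvae and overlapped them across replicates at 6 dpb, while staying lower within each replicate. The log2 fold change of posterior fragments against uncut larvae was -3.48 ± 0.36 at 0 dpb (adjusted p = 0.0114), with uncut larvae 11.1-fold and 11.2-fold higher in the 2 replicates. Only 0.066% of loci were called in that comparison, 21 in number, and Frizz5/8 was the one frizzled locus among them. The value was -2.14 ± 0.34 at 3 dpb (adjusted p = 0.116) and -0.37 ± 0.33 at 6 dpb (0.927). At 3 dpb 0 loci were called by edgeR, while 880 had an unadjusted p under 0.05 and DESeq2 called 97, among them Frizz5/8 (adjusted p = 9.03e-06) and with a replicate block nested in time, in which each time point has its own replicate term, the value was -2.13 (adjusted p = 0.00171). The call at 0 dpb was lost without replicate 2 of uncut larvae (-3.17, adjusted p = 0.133), replicate 1 of posterior fragments (-3.23, 0.169) or replicate 2 of posterior fragments (-3.80, 0.197).

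Over time, the posterior mean of Frizz5/8 went through 24.2 ± 1.83, 56.2 ± 18.0 and 230 ± 90.8 CPM (SD, n = 2) at 0, 3 and 6 dpb, and no posterior library of one time overlapped those of another. The step to 3 dpb over 0 dpb was 1.17 ± 0.34 (log2, adjusted p = 0.242; 0.00314% of loci called) and the step to 6 dpb over 3 dpb was 2.02 ± 0.34 (adjusted p = 0.0603; 0.12% called), so neither passed the threshold. DESeq2 called the step to 6 dpb (1.99, adjusted p = 2.13e-05). In uncut larvae the same steps were -0.18 ± 0.33 (adjusted p = 1, with 0% of loci called) and 0.25 ± 0.33 (adjusted p = 1, with 0.0598% called), and in anterior fragments 0.27 ± 0.33 (0.756, with 0.0157% called) and 0.16 ± 0.33 (1, with 0.182% called).

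The narrowing of the gap between the fragments was tested as the change of a fold change between 0 and 6 dpb. For anterior against posterior fragments the log2 difference of Frizz5/8 changed by -2.76 ± 0.48, and for posterior fragments against uncut larvae by 3.12 ± 0.48. Neither passed the adjustment over all loci (adjusted p = 0.687 and 0.159), and 0% of loci were called in both, although 938 and 3543 loci had an unadjusted p under 0.05. DESeq2 called 41 and 466 loci, including Frizz5/8 in both (adjusted p = 0.000282 and 3.22e-06). With a replicate block nested in time the values were -2.71 (adjusted p = 0.013) and 3.11 (0.00128). For anterior fragments against uncut larvae the change was 0.36 ± 0.47 (adjusted p = 0.859, with 0.0189% of loci called).

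Frizz9/10 had the opposite distribution, with its highest levels in posterior fragments. At 0 dpb it stood at 10.4 and 8.66 CPM in anterior fragments, 297 and 240 CPM in posterior fragments, and 84.4 and 70.6 CPM in uncut larvae. At 3 dpb it had 6.02 and 4.54 CPM in anterior fragments, 233 and 131 CPM in posterior fragments, and 115 and 77.3 CPM in uncut larvae. The 3 kinds of sample did not overlap at either time, again with uncut larvae in between. With library size alone the posterior (266.5 and 121 CPM) and uncut pools (137 and 77.4 CPM) overlapped across replicates at 3 dpb. At 6 dpb it had 15.9 and 2.11 CPM in anterior fragments, 270 and 169 CPM in posterior fragments, and 99.3 and 66.5 CPM in uncut larvae. They did not overlap then either, but the anterior pair was far apart, at 461 and 42 counts, a 7.53-fold ratio that was the widest of any replicate pair among the 4 loci.

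Anterior fragments had less Frizz9/10 than posterior fragments by a log2 fold change of -4.81 ± 0.58 at 0 dpb (adjusted p = 0.000301), -5.06 ± 0.59 at 3 dpb (0.0003) and -4.80 ± 0.58 at 6 dpb (0.000405). As folds, the posterior level was 28.5 and 27.7 times the anterior level in the 2 replicates at 0 dpb, 38.7 and 28.8 times at 3 dpb, and 17.0 and 80.1 times at 6 dpb. The change of this difference between 0 and 6 dpb was 0.02 ± 0.72 (adjusted p = 1). The differences at 0 and 6 dpb thus lay within 1 SE of each other, with an unequal anterior pair at 6 dpb.

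Against uncut larvae, Frizz9/10 was lower in anterior fragments by -3.03 ± 0.53 (log2) at 0 dpb (adjusted p = 0.0067), -4.17 ± 0.56 at 3 dpb (0.00117) and -3.40 ± 0.54 at 6 dpb (0.00374). The call at 0 dpb was lost without replicate 1 of anterior fragments (-2.79, adjusted p = 0.0606). At 6 dpb the value was -2.60 to -5.02 with 1 library left out, and it was -3.58 and past the threshold no longer in a fit of that time point alone (adjusted p = 0.053). Between times the anterior level did not pass the test in either direction, with steps of -0.87 ± 0.51 from 0 to 3 dpb and 0.55 ± 0.51 from 3 to 6 dpb.

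In posterior fragments, Frizz9/10 lay above uncut larvae in both replicates at each time, by 3.51-fold and 3.40-fold at 0 dpb, 2.02-fold and 1.69-fold at 3 dpb, and 2.72-fold and 2.54-fold at 6 dpb. The log2 fold changes of 1.79 ± 0.50, 0.89 ± 0.49 and 1.39 ± 0.50 did not pass the threshold (adjusted p = 0.237, 1 and 0.373), and at 6 dpb 0.00629% of loci were called. The value at 0 dpb did pass with a replicate block nested in time (adjusted p = 0.0371) and in DESeq2 (0.0233).

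**Figure D2:**
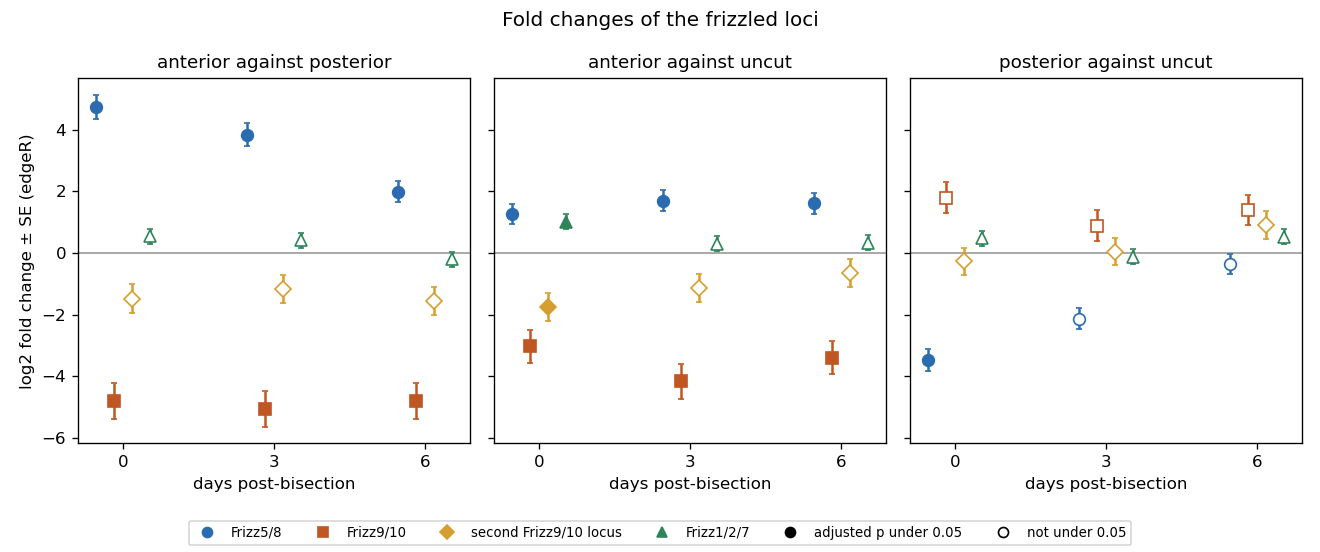
Log2 fold changes with their standard errors from edgeR for the 4 frizzled loci, at 0, 3 and 6 days post-bisection, in anterior against posterior fragments, anterior fragments against uncut larvae and posterior fragments against uncut larvae, with filled symbols for an adjusted p under 0.05. Frizz5/8 drops to 1.98 at 6 dpb in anterior against posterior fragments, while Frizz9/10 lies at -4.80 to -5.06 throughout.

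The second Frizz9/10 locus had more transcript in posterior than in anterior fragments, but by a smaller margin than Frizz9/10. At 0 dpb it had 35.6 and 42.4 CPM in anterior fragments, 99.1 and 118 CPM in posterior fragments, and 112 and 149 CPM in uncut larvae. At 3 dpb it had 100 and 55.8 CPM in anterior fragments, 226 and 126 CPM in posterior fragments, and 226 and 119 CPM in uncut larvae. Anterior and posterior pools did not overlap at these times, and posterior and uncut pools did. Both depended on the scaling. With library size alone the anterior (121 and 53.0 CPM) and posterior pools (259 and 117 CPM) overlapped at 3 dpb. At 0 dpb the posterior (91.5 and 82.3 CPM) and uncut pools (115 and 156 CPM) were then apart. Within replicates the posterior level was 0.883 and 0.795 of the uncut level at 0 dpb, and 1 and 1.07 times it at 3 dpb. At 6 dpb it had 123 and 59.7 CPM in anterior fragments, 239 and 264 CPM in posterior fragments, and 212 and 78.8 CPM in uncut larvae, so that the posterior pools lay above all others of that time.

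Anterior against posterior fragments gave log2 fold changes of -1.48 ± 0.46, -1.18 ± 0.45 and -1.55 ± 0.46 at 0, 3 and 6 dpb, none of which passed (adjusted p = 0.106, 0.29 and 0.0938). All 3 passed with a replicate block nested in time (adjusted p = 0.00711, 0.0335 and 0.00486). Against uncut larvae, the locus was lower in anterior fragments at 0 dpb (-1.76 ± 0.46, adjusted p = 0.043), and the values of -1.14 ± 0.45 at 3 dpb and -0.64 ± 0.45 at 6 dpb did not pass (adjusted p = 0.592 and 1). The call at 0 dpb was lost without replicate 2 of uncut larvae (-1.20, adjusted p = 0.27), replicate 1 of anterior fragments (-1.41, 0.176) or replicate 2 of anterior fragments (-2.21, 0.0856). Against uncut larvae, posterior fragments gave -0.28 ± 0.45, 0.04 ± 0.45 and 0.91 ± 0.45, none called (adjusted p = 0.892, 1 and 0.613).

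The anterior mean of the second locus was 39.0 ± 4.79, 78.1 ± 31.5 and 91.5 ± 45.0 CPM (SD, n = 2) at 0, 3 and 6 dpb. The step to 3 dpb was 0.92 ± 0.46 and did not pass (adjusted p = 0.361). When the counts of both loci were summed under their shared name, anterior against posterior fragments gave -2.93, -2.10 and -2.31, against -4.81, -5.06 and -4.80 for Frizz9/10 alone. The summed value of anterior fragments against uncut larvae at 6 dpb was -1.19 (adjusted p = 0.205), so the call of Frizz9/10 at that time held only for the locus by itself.

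Frizz1/2/7 had the narrowest range of levels of the 4 loci, 99.5 to 245 CPM over the 18 libraries. At 0 dpb it had 245 and 183 CPM in anterior fragments, 151 and 140 CPM in posterior fragments, and 102 and 106 CPM in uncut larvae. The 3 kinds of sample did not overlap, and uncut larvae were here below both fragments rather than between them. With library size alone the posterior pools, at 140 and 97.1 CPM, overlapped the anterior (218 and 124 CPM) and the uncut pools (105 and 111 CPM). At 3 dpb it had 227 and 134 CPM in anterior fragments, 167 and 103 CPM in posterior fragments, and 157 and 131 CPM in uncut larvae. At 6 dpb it had 174 and 123 CPM in anterior fragments, 180 and 157 CPM in posterior fragments, and 137 and 99.5 CPM in uncut larvae. Across replicates, all kinds of sample overlapped at 3 dpb, and at 6 dpb only the posterior and uncut pools were apart. Within replicates at 3 dpb, the anterior level was 1.36 and 1.30 times the posterior and 1.45 and 1.02 times the uncut level. The posterior level was then 1.07 and 0.786 times the uncut level. At 6 dpb the anterior level was 0.967 and 0.784 times the posterior and 1.27 and 1.24 times the uncut level.

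Only 1 of the 9 comparisons called Frizz1/2/7, which was higher in anterior fragments than in uncut larvae at 0 dpb (1.01 ± 0.25 on the log2 scale, adjusted p = 0.0319, 2.40-fold and 1.73-fold in the 2 replicates). That call was lost with library size alone (0.56, adjusted p = 0.224) and without any 1 of the 4 libraries compared (0.78 to 1.26, adjusted p between 0.0575 and 0.143). Anterior against posterior fragments gave 0.54 ± 0.24, 0.41 ± 0.24 and -0.20 ± 0.24 at 0, 3 and 6 dpb (adjusted p = 0.327, 0.687 and 0.899). Posterior fragments against uncut larvae gave 0.47 ± 0.24, -0.12 ± 0.24 and 0.53 ± 0.24 (adjusted p = 0.505, 1 and 0.555).

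Ordered by group mean, the 9 levels of Frizz5/8 ran in 4 separate steps. The anterior groups at 6, 3 and 0 dpb came first with 886, 803 and 640 CPM, followed by the uncut groups at 6, 0 and 3 dpb and the posterior group at 6 dpb with 295, 270, 248 and 230 CPM, then posterior fragments at 3 dpb with 56.2 CPM and at 0 dpb with 24.2 CPM. Of the 8 pairs of neighbours in this order, 5 overlapped, judged across replicates rather than within each. For Frizz9/10, 6 of 8 neighbours overlapped and the order had 3 steps, with the posterior groups at 182 to 268 CPM, the uncut groups at 77.5 to 96.2 CPM and the anterior groups at 5.28 to 9.54 CPM, whatever the time. With library size alone the posterior and uncut steps were not separate, since their pools overlapped at 3 dpb. For Frizz1/2/7 all 8 neighbours overlapped between 214 CPM in anterior fragments and 104 CPM in uncut larvae, both at 0 dpb. For the second Frizz9/10 locus, posterior fragments at 6 dpb (252 CPM) and anterior fragments at 0 dpb (39.0 CPM) were set apart at the ends, and the 7 groups between them overlapped from one to the next.

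Levels of different loci were compared per kilobase of exonic length, as CPM per kb. Summed over the 4 loci, frizzled transcripts came to 140 to 233 CPM per kb in anterior fragments, 56.1 to 150 CPM per kb in posterior fragments and 75.1 to 134 CPM per kb in uncut larvae. Frizz5/8 made up 79.6% to 88.6% of that sum in the 6 anterior libraries, 6.22% to 39.3% in the 6 posterior libraries and 47.7% to 59.3% in the 6 uncut libraries. Frizz9/10 made up 0.156% to 1.00% in anterior, 20.2% to 54.1% in posterior and 9.48% to 13.2% in uncut libraries. These shares do not depend on the scaling of the libraries, and for both loci the 3 kinds of sample did not overlap.

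Within posterior libraries the leading locus changed with time. Frizz9/10 led at 0 dpb with 54.1% and 46.9% of the sum, the second Frizz9/10 locus led at 3 dpb with 38.2% and 36.9%, and at 6 dpb Frizz5/8 led in replicate 1 with 39.3% and the second Frizz9/10 locus in replicate 2 with 38.2%. The lead at 3 dpb rests on the annotated lengths. In CPM, Frizz9/10 was then slightly above the second locus in posterior fragments, at 233 and 131 against 226 and 126 CPM. The ratio of Frizz5/8 to Frizz9/10 per kb was 0.115 and 0.158 in posterior fragments at 0 dpb, 0.441 and 0.495 at 3 dpb, and 1.63 and 1.46 at 6 dpb. It was 3.61 to 6.03 in uncut larvae and 79.5 to 570 in anterior fragments, so the posterior ratio at 6 dpb was still below that of every uncut library.

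**Figure D3:**
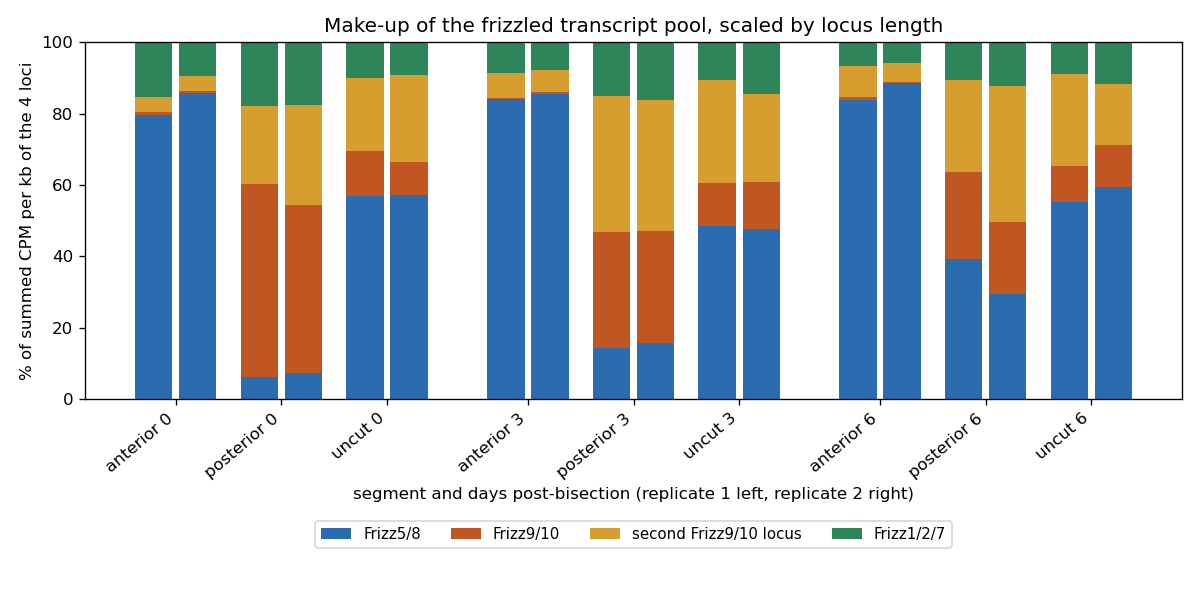
Share of each locus, in percent, of the summed CPM per kb of the 4 frizzled loci in each of the 18 libraries, grouped by anterior fragments, posterior fragments and uncut larvae at 0, 3 and 6 days post-bisection, replicate 1 on the left of each pair. Frizz5/8 fills 79.6% to 88.6% of the anterior bars at all times, and 6.22% and 7.42% of the posterior bars at 0 dpb against 39.3% and 29.5% at 6 dpb.

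Among 13706 named loci, the 5 whose log2 CPM followed each frizzled locus most closely over the 18 libraries were listed by Pearson's r. The libraries share groups and batches, so these values describe likeness only. For Frizz5/8 they were Z133 (r = 0.978), Nkx2.1 (0.97), Zic (0.967), Awh (0.966) and Rx (0.958), of which Nkx2.1, Awh and Rx encode homeodomain transcription factors and Zic a zinc finger one. Mean levels of Z133 were 61.8 CPM in anterior, 1.45 CPM in posterior and 20.5 CPM in uncut samples at 0 dpb, and 63.4 CPM in anterior, 29.8 CPM in posterior and 19 CPM in uncut samples at 6 dpb. Nkx2.1, Zic and Rx are also in the anterior marker list above.

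For Frizz9/10 they were Spc39L (r = 0.971), Susd2 (0.967), Aqp8, a water channel gene (0.966), Rhox3 (0.965) and the homeobox gene Hb9 (0.963). Mean levels of Aqp8 were 2.19 CPM in anterior, 67.5 CPM in posterior and 32.1 CPM in uncut samples at 0 dpb, and 0.701 CPM in anterior, 30.6 CPM in posterior and 20.2 CPM in uncut samples at 6 dpb. For the second Frizz9/10 locus they were the ligand WntA (0.899), Hs3st1, an enzyme of heparan sulfate sulfation (0.894), Msxl (0.89), Bbox1 (0.89) and Rspo3 (0.889), which encodes an R-spondin, a secreted protein that keeps frizzled receptors on the cell surface. For Frizz1/2/7 the closest was Dsh (0.941), the gene of Dishevelled, which acts directly after frizzled receptors, with 98.9 CPM in anterior, 68.8 CPM in posterior and 50.2 CPM in uncut samples at 0 dpb, followed by Bicc1 (0.886), a locus named Ig/Egf/Vwc (0.885), FoxO (0.883) and a locus named Ctnnd2 (0.882).

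The frizzled loci correlated with each other only in part. Over the 18 libraries, r was -0.787 between Frizz5/8 and Frizz9/10, 0.732 between Frizz9/10 and the second Frizz9/10 locus, 0.32 between Frizz5/8 and Frizz1/2/7, and between -0.135 and -0.338 for the remaining pairs.

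The rest of the Wnt pathway was read from lists of names, in anterior against posterior fragments. Several loci in these lists share a name, among them those of Wnt1, Wnt3 and Wnt16, and the counts are of loci, not of genes. Most Wnt ligand loci lay on the side of Frizz9/10. At 0 dpb 13 of 18 ligand loci were lower in anterior fragments and 1 was higher, where 4.41% of all tested loci were called lower and 0.884% higher, and their median log2 fold change was -2.79 against 0.11 over all tested loci. At 3 dpb 14 were lower and 1 higher (median -3.01), where 2.92% of all loci were called lower and 0.667% higher, and at 6 dpb 9 were lower and 1 higher (median -2.95), where 2.73% were called lower and 1.6% higher. The farthest lower at 0 dpb were Wnt16 (XLOC_054546, -5.20 ± 0.78, adjusted p = 0.0014) and the Wnt1 loci XLOC_044210 (-5.04 ± 0.88, 0.00405) and XLOC_044208 (-4.81 ± 0.89, 0.0061). The single higher ligand locus was Wnt5 (XLOC_027835), with 48 and 16.3 CPM in anterior fragments against 3.02 and 1.28 CPM in posterior fragments (3.85 ± 0.52, adjusted p = 0.000659), while the other Wnt5 locus, XLOC_009399, was lower (-2.71 ± 0.58, 0.0157).

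Secreted inhibitors were mixed, and most of their loci carry the name Sfrp3/4I. Of 13 loci, 1 was higher in anterior fragments at 0 dpb, Dkk1, whose protein blocks the LRP co-receptor, with 67.3 and 36.2 CPM in anterior against 13.1 and 11.6 CPM in posterior fragments (2.00 ± 0.26, adjusted p = 0.000589), and 1 was lower, Sfrp3/4I (XLOC_024449), of a family of secreted frizzled-related proteins that bind Wnt (-2.84 ± 0.74, adjusted p = 0.0495). At 3 dpb 2 of the 13 were higher and 1 was lower, and at 6 dpb 0 were higher and 3 were lower. Dkk1 differed by 2.04 at 3 dpb (adjusted p = 0.000631) and 0.61 at 6 dpb (0.28), and Sfrp3/4I (XLOC_024449) by -4.96 at 3 dpb (0.00839) and -6.44 at 6 dpb (0.00189). Both loci of receptor turnover were lower at 0 dpb, Rspo3 (-2.93 ± 0.66, adjusted p = 0.0208) and Znrf3 (-1.06 ± 0.27, 0.0441), a ubiquitin ligase that removes frizzled receptors from the membrane, and edgeR called neither at 3 or 6 dpb. At each of those times 1 of the 2 had an unadjusted p under 0.05 and DESeq2 called 1 lower. Inside the cell, 1 of 14 loci was lower at 0 dpb, Axin (XLOC_012203), a scaffold of the complex that destroys beta-catenin (-1.91 ± 0.38, adjusted p = 0.00914), which is 1 of 14 against 4.41% of all loci called lower. EdgeR called 0 of the 14 at 3 and 6 dpb, where 2 and 1 had an unadjusted p under 0.05 and DESeq2 called 0 and 0. Many of the 14 carry the name Ck1a1. Of the 5 co-receptor loci, the 9 nuclear effector loci and the 4 planar polarity loci, edgeR called 0 at any time in this comparison. At 0, 3 and 6 dpb an unadjusted p under 0.05 was reached by 1, 2 and 3 co-receptor loci, 2, 0 and 0 nuclear effector loci and 1, 2 and 1 planar polarity loci. DESeq2 called 1, 0 and 2 co-receptor loci, 0 nuclear effector loci at each time, and 1, 0 and 1 planar polarity loci. Of all 31798 tested loci, an unadjusted p under 0.05 was reached by 4734, 3610 and 4503 at 0, 3 and 6 dpb. DESeq2 called 2567, 1845 and 2655 of all tested loci at those times. The list counts by these criteria are to be read beside those numbers.

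**Figure D4:**
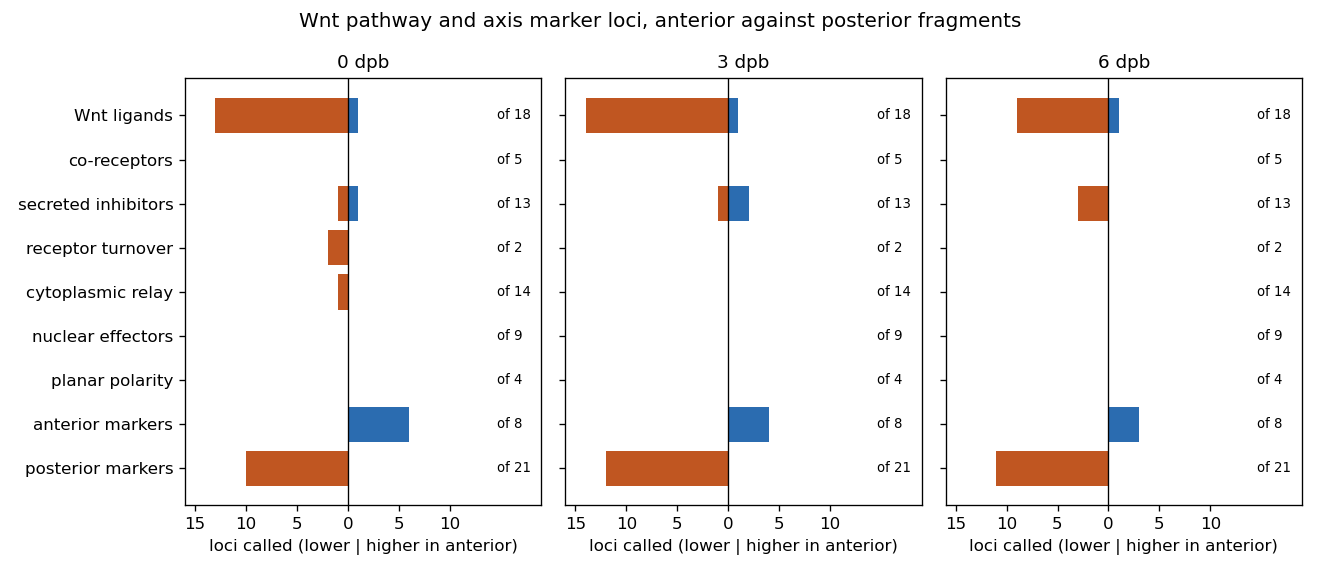
Number of loci called at an adjusted p under 0.05 in anterior against posterior fragments at 0, 3 and 6 days post-bisection for the Wnt pathway lists and the axis marker lists, with bars to the right for higher and to the left for lower in anterior fragments, and the number of loci in each list at the edge. Wnt ligands show 13, 14 and 9 of 18 lower in anterior fragments, on the side of Frizz9/10, and anterior markers 6, 4 and 3 of 8 higher, on the side of Frizz5/8.

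Against uncut larvae at 0 dpb, the anterior fragments, in which Frizz1/2/7 was called higher, also had more of Dsh (0.98 ± 0.25, adjusted p = 0.0396), the co-receptor locus Lrp6L (XLOC_048675, 1.65 ± 0.28, 0.00561), the kinase gene Ck1a1 (XLOC_079071, 1.29 ± 0.34, 0.0416) and the planar polarity locus Ankrd6L (3.12 ± 0.70, 0.0221). These were 2 of 14 loci inside the cell, 1 of 5 co-receptor loci and 1 of 4 planar polarity loci. Called higher were 0 of 18 ligand, 0 of 13 secreted inhibitor and 0 of 9 nuclear effector loci. With library size alone 314 loci were called higher in this comparison, against 736, and values of these genes under that scaling are not given here. In the same comparison 5 of 18 ligand loci, Rspo3 and Axin were called lower. Of all tested loci 4.76% were called lower and 2.31% higher. These genes, like the other Wnt5 locus above and those of the next sentence, were named after their values were seen. In posterior fragments against uncut larvae at 0 dpb, the ligand locus Wnt5 (XLOC_027835, -3.75 ± 0.52, adjusted p = 0.0249) and Dkk1 (-1.92 ± 0.26, 0.0249) were called lower by edgeR, as was Frizz5/8, where 0.0409% of all tested loci were called lower.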

How the data were processed

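Per the labels, polyA RNA of each pool was sequenced, and the authors deposited raw counts of reads per locus for the 18 libraries (HTSeq 0.6.1p1), made on P. miniata v1.0 with TopHat2 2.0.12 and Cufflinks 2.2.1 per the submitters' processing notes. The deposited transcript annotation, with its coordinates, and name table gave positions, lengths and names. That table also holds the authors' own log2 fold changes, which were not used.

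Counts flagged as in no locus (2.37% to 3.65%) or ambiguous (6.12% to 8.74%) stayed out. Loci above 3 CPM in at least 2 libraries were kept, and edgeR 4.0.16 (R 4.3.3) was fitted to all libraries with TMM scaling (factors 0.677 to 1.22), terms for group (9) and replicate number. The methods control for a batch without defining it, and the number was taken for it. P-values were adjusted by Benjamini-Hochberg over all 31798 loci. No 2 libraries held identical counts. Replicates are separate pools of siblings, so p-values measure the spread between pools. Deviations from the group mean of same-numbered libraries correlated at 0.742 to 0.916 within a time point (9 pairs). Between time points they correlated at 0.179 to 0.675 (27 pairs), so the numbers pair the libraries more closely within a time. The common dispersion was 0.146 in the main fit and 0.0475 with a block nested in time. Values that did not pass in the main fit are to be read with that in mind. The SE was taken as the fold change over the root of its F value.

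The members and lists were chosen with earlier results of these data known. Named were all frizzled loci, the 5 named loci with the highest r to each, and, in each Wnt pathway list, called loci with the 3 largest changes in each direction at 0 dpb in anterior against posterior fragments. Of the marker lists, the called gut and mesenchyme loci were named by the same rule. The values of anterior and posterior marker loci that met it are not given. The fit was also run on simulated data with 200 changed loci, and no result here rests on that run. Alternatives were library size alone, DESeq2 size factors, DESeq2 1.42.0, no block, a block nested in time (not for steps between times), other filters, a fit per time point, each library left out, and loci of a name summed. The study's own probe measurements on another platform were not used here.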

Additional observations from a re-analysis of the deposited data

Results flagged for a closer look

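Frizz5/8 and Frizz9/10 were singled out because the 2 fragments differed in their departure from the same uncut larvae, by the test of anterior against posterior fragments itself. For Frizz5/8 the log2 difference between the fragments was 4.74 at 0 dpb (edgeR adjusted p = 4.04e-05), 3.84 at 3 dpb (9.68e-05) and 1.98 at 6 dpb (0.00532), with the anterior level higher in 2 of 2 replicates each time. For Frizz9/10 it was -4.81 at 0 dpb (0.000301), -5.06 at 3 dpb (0.0003) and -4.80 at 6 dpb (0.000405), with the anterior level lower in 2 of 2 replicates each time.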

How the results depend on the processing

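The calls of Frizz5/8 and Frizz9/10 in anterior against posterior fragments at 0, 3 and 6 dpb kept their direction and passed the threshold under every alternative run, except Frizz5/8 at 6 dpb without replicate 2 of the posterior fragments (1.73 to 2.27 over the libraries left out). So did Frizz9/10 in anterior fragments against uncut larvae at 3 dpb. Values below are log2 fold changes, and the cause of a lost or gained call was not tested.

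With library size alone, the calls in anterior fragments against uncut larvae at 0 dpb were lost for Frizz5/8 (0.79) and Frizz1/2/7 (0.56). Without a filter they were lost for Frizz5/8 (1.22), Frizz1/2/7 (0.98) and the second Frizz9/10 locus (-1.79), and with a filter at 1 CPM for Frizz5/8 (1.27) and the second locus (-1.74). A fit per time point lost Frizz9/10 in anterior fragments against uncut larvae at 6 dpb (-3.58) and gained Frizz9/10 (1.82) in posterior fragments against uncut larvae at 0 dpb, Frizz5/8 (-2.13) in the same at 3 dpb, and the second locus in anterior against posterior fragments at 0 and 3 dpb (-1.51 and -1.19) and in anterior fragments against uncut larvae at 3 dpb (-1.14). Summing the Frizz9/10 loci lost the call in anterior fragments against uncut larvae at 6 dpb (-1.19). DESeq2 gained the second locus in anterior against posterior fragments at 0 and 6 dpb (-1.46 and -1.52), Frizz9/10 (1.82) in posterior fragments against uncut larvae at 0 dpb, and for Frizz5/8 posterior fragments against uncut larvae at 3 dpb (-2.12), the posterior step between 3 and 6 dpb (1.99), and the changes between 0 and 6 dpb of the difference from anterior fragments (-2.75) and from uncut larvae (3.08).

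The replicate numbers pair the libraries, more closely within a time point than between time points. A fit with no replicate block lost the calls in anterior fragments against uncut larvae at 0 dpb of Frizz5/8 (1.24), Frizz1/2/7 (1.04), Frizz9/10 (-3.02) and the second locus (-1.74), at 3 dpb of Frizz5/8 (1.70), at 6 dpb of Frizz5/8 (1.59) and Frizz9/10 (-3.20), and in posterior fragments against uncut larvae at 0 dpb of Frizz5/8 (-3.48). A replicate block nested in time gained the second locus in anterior against posterior fragments (-1.48, -1.18 and -1.62 at 0, 3 and 6 dpb), Frizz9/10 in posterior fragments against uncut larvae at 0 dpb (1.79) and Frizz5/8 in the same at 3 dpb (-2.13) and in the changes of the difference (-2.71 and 3.11). Neither block setting changed another call. Steps between time points have no value under the block nested in time, in which each time has its own replicate term.

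Values that were called under no setting changed sign in some. With library size alone these were the second locus in posterior fragments against uncut larvae at 3 dpb (-0.039), the steps of Frizz1/2/7 between 0 and 3 dpb (0.20 anterior, 0.22 posterior) and the changes between 0 and 6 dpb for Frizz9/10 in anterior against posterior fragments (-0.047), anterior fragments against uncut larvae (0.11) and posterior fragments against uncut larvae (0.16). With a replicate block nested in time it was the change for Frizz9/10 in anterior against posterior fragments (-0.14), and with no replicate block the change for the second locus in the same (0.019). Summed loci gave 0.69 for the anterior step of Frizz9/10 between 0 and 3 dpb and 0.91 and 0.29 for the changes between 0 and 6 dpb of anterior and posterior fragments against uncut larvae.

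Leaving out each library in turn gave these ranges where a call was lost or a sign changed. Anterior fragments against uncut larvae gave 0.78 to 1.62 (Frizz5/8), 0.78 to 1.26 (Frizz1/2/7), -3.30 to -2.75 (Frizz9/10) and -2.21 to -1.20 (second locus) at 0 dpb, 1.50 to 1.93 (Frizz5/8) at 3 dpb, and 1.41 to 1.85 (Frizz5/8) and -1.09 to 0.0070 (second locus) at 6 dpb. Posterior fragments against uncut larvae gave -3.80 to -3.17 (Frizz5/8) and -0.74 to 0.28 (second locus) at 0 dpb, and -0.31 to 0.055 (Frizz1/2/7) and -0.20 to 0.34 (second locus) at 3 dpb. Steps between 0 and 3 dpb gave -0.10 to 0.71 (Frizz5/8, anterior), -0.34 to 0.029 (Frizz1/2/7, posterior), -0.45 to 0.13 (Frizz5/8, uncut) and -0.13 to 0.83 (second locus, uncut), and steps between 3 and 6 dpb gave -1.06 to 1.36 (Frizz9/10, anterior), -0.16 to 0.51 (second locus, anterior) and -0.92 to 0.18 (second locus, uncut). Changes between 0 and 6 dpb gave -1.61 to 0.81 (Frizz9/10) and -0.55 to 0.34 (second locus) in anterior against posterior fragments, -1.99 to 0.42 (Frizz9/10) in anterior fragments against uncut larvae and -0.20 to 0.28 (Frizz1/2/7) in posterior fragments against uncut larvae. The lone library left in a group is assumed to vary like the other groups.

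The number of loci called moved by more than 1.5 times between fits, those with a library left out included. In anterior against posterior fragments at 0, 3 and 6 dpb it was 1682, 1141 and 1377 and ranged over 983 to 3809, 687 to 3870 and 628 to 4106; in anterior fragments against uncut larvae it was 2248, 718 and 697 and ranged over 610 to 8560, 363 to 1818 and 464 to 1193; in posterior fragments against uncut larvae it was 21, 0 and 2 and ranged over 0 to 1363, 0 to 294 and 0 to 1399. Steps between time points called 0 to 58 loci and up to 1315 under an alternative, and changes between 0 and 6 dpb called 0 to 6 and up to 1707. With Spearman's rank correlation 8 of the 20 loci listed as most like a member stayed among its top 5, and over the 9 group means 6 of 20 did. With 2 pools a group, differences of small size could not be resolved.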

Other observations

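At 0 dpb the uncut level lay between those of the fragments for Frizz5/8 and Frizz9/10 in both replicates, under TMM scaling and with library size alone. The uncut level of Frizz5/8 lay 0.436 and 0.372 of the way up from the posterior to the anterior level under TMM scaling (0.509 and 0.597 with library size alone). That of Frizz9/10, whose anterior level was the lower, lay 0.742 and 0.732 of the way down from posterior to anterior (0.708 and 0.576). The uncut level of the second Frizz9/10 locus was above both fragments in both replicates under either scaling. The uncut level of Frizz1/2/7 was below both fragments in both replicates under TMM scaling, but with library size alone only in replicate 1, where it was 105 CPM against 218 CPM in anterior and 140 CPM in posterior fragments.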
